A study of Mus musculus with 4 samples.

Results

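Cytosolic ribosomal protein genes encode the proteins of the ribosome that translates nuclear-encoded mRNA. They were taken as every row of the gene counts whose name begins with Rpl or Rps followed by a digit, together with *Rplp0*, *Rplp1*, *Rplp2* and *Rpsa*, without names that contain -ps and without the Rps6k kinases. This gave 93 of 55450 genes. Of these, 46 are the standard genes of the large subunit and 31 those of the small subunit. The other 16 carry paralog or retrocopy names, apart from *Rps19bp1*, which shares the prefix but encodes a binding protein of *Rps19*.

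The genes were measured by RNA-seq of MLO-Y4 cells, a wild-type-labelled mouse osteocyte-like line that was derived from the long bone of a mouse carrying the SV40 large T antigen under the osteocalcin promoter. All cells were grown in DMEM with fetal bovine and newborn calf serum. The cells of the 2 loaded libraries (MTre) grew on a collagen-coated silicone membrane and were stretched equiaxially to 20% strain at 0.5 Hz for 12 h, and those of the 2 unloaded libraries (MCtr) stayed for 12 h in the same incubator on ordinary 6-well plates, so that stretch and plate cannot be told apart. The labels do not say whether the 2 libraries of a group came from separate cultures, and the spread between them may be technical.

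The 4 libraries held between 28941994 and 32185693 counts, and a count of 3 corresponded to between 0.0932 and 0.104 CPM, the normalised count scaled to a common library total. Among osteocyte markers, *Phex* had 1270 to 1662 counts and *Pdpn* 4154 to 6943 counts, whereas *Dmp1* had 12 to 14 counts, *Sost* had 4 counts in 1 library and *Mepe* had 0 in all 4. Markers of the macrophage (*Ptprc* and *Adgre1*, up to 4 counts), epithelium (*Epcam*), fat (*Adipoq*) and muscle (*Myh1*) were at or near 0. The endothelial markers *Pecam1* and *Cdh5* had up to 32 and 61 counts, and of the other macrophage markers *Csf1r* had 45688 to 50270 counts and *Cd68* had 84 to 162.

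The small subunit decodes the mRNA and the large subunit joins the amino acids, and each mature ribosome holds 1 copy of nearly every ribosomal protein. Assembly takes place mostly in the nucleolus, where ribosomal RNA made by RNA polymerase I meets the imported proteins. Messenger RNAs for ribosomal proteins classically begin with a cytosine and an unbroken run of pyrimidines, the terminal oligopyrimidine (TOP) start. Through this start the kinase complex mTORC1 and the RNA-binding protein LARP1 control how strongly these mRNAs are translated and how long they last. RNA-seq measures the mRNA level only, so a change in the translation of these mRNAs would not be seen in the counts, and fewer expressing cells cannot be told apart from less RNA per cell.

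The standard genes are spread over 19 chromosomes, with 14 on chromosome 7, and have short transcripts, with a median of 774 nucleotides (nt) and 60 of 77 under 1000 nt in the GENCODE M21 annotation of GRCm38. RefSeq (GRCm38.p6) gave a start sequence for 57 of the 77 standard genes. A cytosine followed by at least 4 pyrimidines stood exactly at the annotated start in 12 of the 57 (21.1%), against 2.40% of 10581 tested genes with an entry. A cytosine followed by at least 5 pyrimidines began within 5 bases of the start in 24 of the 57 (42.1%), against 10.8% of the tested genes. The starts below are shown because they belong to genes described with their values further on, with bases 10 before to 20 from the start, 5′ to 3′ on the gene's strand, and with the pyrimidine run near the start in capitals.
Rps6, chr4:86857348-86857377, minus strand: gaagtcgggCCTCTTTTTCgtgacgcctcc
Rpl38, chr11:114668570-114668599, plus strand: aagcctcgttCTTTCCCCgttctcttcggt
Rpl13a, chr7:45128726-45128755, minus strand: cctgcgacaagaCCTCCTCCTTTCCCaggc
Rps27, chr3:90213629-90213658, minus strand: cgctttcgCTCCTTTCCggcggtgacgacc
Rpl22l1, chr3:28805498-28805527, plus strand: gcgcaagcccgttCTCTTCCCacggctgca
Rpl6, chr5:121204491-121204520, plus strand: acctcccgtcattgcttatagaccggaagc
Rpl7l1, chr17:46782637-46782666, minus strand: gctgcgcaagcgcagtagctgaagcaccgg
Rpl4, chr9:64173377-64173406, plus strand: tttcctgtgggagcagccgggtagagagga
Rpsa, chr9:120127756-120127785, plus strand: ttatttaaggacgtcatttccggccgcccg
Rps28, chr17:33824543-33824572, minus strand: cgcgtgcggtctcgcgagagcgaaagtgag
Rpl22, chr4:152324426-152324455, plus strand: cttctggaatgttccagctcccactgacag
No such run was found near the annotated start of *Rpl6*, *Rpl7l1*, *Rpl4*, *Rpsa*, *Rps28* or *Rpl22*, which have no capitals. The start used was that of the most upstream RefSeq entry of each gene. For *Rpl22* it lies upstream of the start of the gene in GENCODE M21, and for *Rps28* the 2 starts coincide. In the other genes shown it lies downstream of the GENCODE start, so a run or its absence holds for the RefSeq start only.

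In the 300 bases from 250 before to 50 after the annotated start, searched on both strands, CCGGAAG (the core of ETS family sites) was found in 40.4% of the 57 standard genes and in 18.3% of the tested genes. CCATNTT, the core of YY1 sites, was found in 31.6% against 15.2%. TGACNNNGC, the core of the antioxidant response element, was found in 19.3% against 14.7%. None of these motifs contains another, and a match describes letters in the window, not binding.

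Loading was compared with the unloaded state over all 16269 genes that passed the filter on low counts, of which 90 were ribosomal protein genes. All 77 standard genes passed. *Rpl3l*, the muscle paralog of *Rpl3*, had 4 counts in 1 unloaded library and 0 in the other 3, and *Rpl10l*, the testis paralog of *Rpl10*, and *Rps12l1* had 0 counts in all 4, so these were not tested. No ribosomal protein gene was called higher and none was called lower at an adjusted p under 0.01 (edgeR quasi-likelihood test with Benjamini-Hochberg adjustment), where 0.0983% of all tested genes were called, 0.0123% higher and 0.0861% lower. DESeq2 also called 0 of them, where it called 2.91% of the genes for which it gave an adjusted p (1.36% higher and 1.55% lower). At an adjusted p under 0.05 the count remained 0, with 0.904% of all tested genes called. At an unadjusted p under 0.05 there were 3 of 90, namely *Rpl22l1*, *Rpl7l1* and *Rpl6*, against 14.3% of all tested genes (6.88% higher and 7.46% lower).

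The intervals below describe each gene on its own, without the adjustment over all genes. A change larger than the half-width could therefore still go uncalled. The median half-width of the 95% confidence interval of the log2 fold change was 0.20 over the 90 genes. The interval lay within 0.5 of 0 in 71 of the 77 standard genes and within 1 of 0 in all 77. Among all tested genes, which include many of low level, it lay within 0.5 of 0 in 6698 of 16269. The exception among the ribosomal protein genes beyond 1 was *Rpl32l*, a processed pseudogene by annotation, with 9 and 17 counts in the unloaded and 29 and 4 counts in the loaded libraries.

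**Figure D1:**
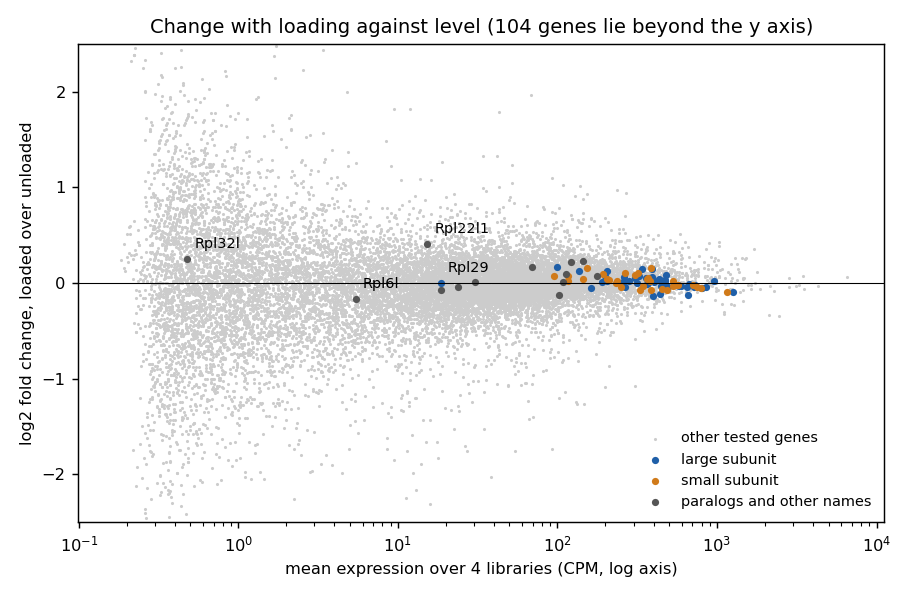
Log2 fold change of loaded over unloaded cells (y axis) against mean expression over the 4 libraries in CPM (x axis, log scale) for each tested gene. Grey points are other genes, blue points large subunit genes, orange points small subunit genes and dark points paralogs and other names, and the standard genes lie between -0.14 and 0.17.

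Ribosomal protein genes took 3.20% and 3.46% of all counts in unloaded libraries 1 and 2 (mean 3.33 ± 0.178, SD, n = 2) and 3.42% and 3.14% in loaded libraries 1 and 2 (3.28 ± 0.195, SD, n = 2). The 2 groups overlapped, and the means differed by less than the spread within either group. Large subunit genes took 1.96% and 2.11% of the counts in unloaded and 2.09% and 1.92% in loaded libraries. The small subunit followed the same order, with 1.16% and 1.25% in unloaded and 1.23% and 1.13% in loaded libraries. With 2 libraries against 2, a two-sided exact permutation test of these shares cannot give a p below 0.333, so none was run.

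For the large subunit, the median log2 fold change was 0.0076 over 46 genes, with an interquartile range from -0.033 to 0.048 and extremes of -0.14 and 0.17, beside a median of -0.0089 over all tested genes. The fold change was above 0 in 25 genes and below 0 in 21, against 48.5% of all tested genes above 0. The groups did not overlap in 6 genes that were higher in both loaded libraries (*Rpl30*, *Rpl21*, *Rpl23*, *Rpl10*, *Rpl11* and *Rpl15*) and in 5 that were lower in both (among them *Rpl6*, *Rpl4*, *Rpl7* and *Rpl26*), and they overlapped in the other 35. Over all tested genes, 22.1% did not overlap and were higher and 24.5% did not overlap and were lower, so that 46.6% separated in either direction.

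Among the lower genes, *Rpl6*, an RNA-binding protein of the large subunit surface, had 686 and 688 CPM in unloaded and 632 and 629 CPM in loaded libraries. Its log2 fold change was -0.12 with a standard error (SE) of 0.051, an unadjusted p of 0.0497 and an adjusted p of 0.347 (edgeR). Both loaded values lay below both unloaded values by far more than replicates differed, but the separation did not pass the adjustment over all genes. *Rpl4*, whose product reaches into the exit tunnel for the new peptide, had 1307 and 1303 CPM in unloaded and 1233 and 1217 CPM in loaded libraries, a log2 change of -0.09 (edgeR adjusted p = 0.445). *Rpl7* had 608 and 598 CPM against 586 and 594 CPM. The means of *Rpl26* were 270 ± 0.464 and 262 ± 2.71 CPM (SD, n = 2).

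Among the higher genes, *Rpl30*, which also binds the selenocysteine element of selenoprotein mRNAs, had 312 and 332 CPM in unloaded and 373 and 342 CPM in loaded libraries. Its log2 fold change was 0.15 (SE 0.071, edgeR adjusted p = 0.406). *Rpl21* had 356 and 391 CPM in unloaded and 422 and 405 CPM in loaded libraries, with a log2 change of 0.15 (edgeR adjusted p = 0.409). In both genes the lower loaded value lay close above the higher unloaded value. *Rpl10*, which joins the large subunit late in its maturation, had means of 314 ± 3.14 and 331 ± 14.4 CPM (SD, n = 2).

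*Rpl5* and *Rpl11* form a particle with the smallest ribosomal RNA of the large subunit that binds Mdm2 and can stabilise p53. *Rpl11* had 424 and 432 CPM in unloaded and 434 and 445 CPM in loaded libraries, a log2 fold change of 0.04 with a 95% interval from -0.10 to 0.17. *Rpl5* had 683 and 655 CPM against 667 and 660 CPM, a log2 fold change of -0.01 with an interval from -0.14 to 0.12. The loaded values of *Rpl5* lay between its unloaded values.

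The stalk of the large subunit, built of *Rplp0* and the acidic proteins *Rplp1* and *Rplp2*, recruits the elongation factors. *Rplp0* had 823 and 895 CPM in unloaded and 856 and 819 CPM in loaded libraries (log2 fold change -0.04, interval -0.19 to 0.12). *Rplp1* had 549 and 627 CPM against 610 and 538 CPM (-0.03, interval -0.26 to 0.19). *Rplp2* had 229.7 and 285 CPM against 289 and 229 CPM (0.01, interval -0.34 to 0.36). In all 3 stalk genes unloaded library 2 was the higher of its pair and loaded library 2 the lower of its pair, and the groups overlapped.

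*Rpl13a*, a subunit of the interferon-gamma-activated inhibitor of translation, had the lowest log2 fold change of the standard genes at -0.14 (SE 0.168, edgeR adjusted p = 0.771). Its values were 347 and 480.1 CPM in unloaded and 415 and 336 CPM in loaded libraries, so the spread within each group exceeded the difference between the groups. *Rpl39*, which lines the peptide exit tunnel, had the highest at 0.17 (SE 0.144, edgeR adjusted p = 0.651), from 86.3 and 101 CPM in unloaded and 119 and 91.6 CPM in loaded libraries. *Rpl38*, known for its part in the translation of Hox mRNAs, had 113 and 147 CPM against 162 and 122 CPM. *Rpl10a*, studied in ribosomes of special composition, had 394 and 346 CPM against 407 and 359 CPM.

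For the small subunit, the median log2 fold change was 0.017 over 31 genes, with an interquartile range from -0.038 to 0.064 and extremes of -0.09 and 0.16. The fold change was above 0 in 18 genes and below 0 in 13. In 28 genes the groups overlapped, in 3 both loaded libraries were lower (*Rpsa*, *Rps6* and *Rps3a1*), and in 0 both were higher, where 46.6% of all tested genes separated, 24.5% lower and 22.1% higher. The smallest adjusted p of the small subunit was 0.478 (edgeR), for *Rpsa*. At an unadjusted p under 0.05 (edgeR) there were 0 small subunit genes, against 14.3% of all tested genes.

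*Rpsa*, a small subunit protein also known as the laminin receptor, had 1192 and 1185 CPM in unloaded and 1085 and 1142 CPM in loaded libraries. Its log2 fold change was -0.09 (SE 0.052) with a 95% interval from -0.22 to 0.03. *Rps6*, the substrate of the S6 kinases downstream of mTORC1, had 808 and 803 CPM in unloaded and 772 and 779 CPM in loaded libraries. Its log2 fold change was -0.05 (SE 0.050, edgeR adjusted p = 0.678). The separation of the 2 groups of *Rps6* was small, at 775 ± 5.25 against 805 ± 3.79 CPM (SD, n = 2).

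The small subunit genes with the highest fold changes were *Rps27*, *Rps13*, *Rps15a*, *Rps27a* and *Rps25*, between 0.10 and 0.16 on the log2 scale, and all 5 overlapped between the groups. *Rps27*, a zinc finger protein, had 330 and 399 CPM in unloaded and 433 and 379 CPM in loaded libraries (log2 fold change 0.16, SE 0.110). *Rps27a*, which is made as a fusion with ubiquitin, had 298 and 318 CPM against 350 and 312 CPM (0.10, SE 0.078). *Rps25*, used by several viral internal ribosome entry sites, had 178 and 194 CPM against 216 and 181 CPM. *Rps19*, the gene most often mutated in Diamond-Blackfan anaemia, had 217 and 254 CPM against 266 and 211 CPM (0.02, interval -0.30 to 0.33), and *Rps3*, which also takes part in DNA repair, had 520.5 and 551 CPM against 557 and 493 CPM (-0.03, interval -0.22 to 0.16). In each of these 5 genes unloaded library 1 was below unloaded library 2, and loaded library 2 was below loaded library 1.

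That order of the libraries ran through most of the ribosomal protein genes. Unloaded library 2 was above unloaded library 1 in 76 of 90 genes, with a median log2 difference of 0.12, and loaded library 2 was below loaded library 1 in 75 of 90, with a median of -0.12. Both signs were found in 68 of 90, among them 37 large and 23 small subunit genes, and in 27.6% of all tested genes. In 58 of the 90 genes both differences between replicates were larger than the difference between the group means, against 33.5% of all tested genes, and in 16 both were smaller, against 34.7%. The median deviation of a gene from its own mean over the 4 libraries was -0.068, 0.053, 0.061 and -0.048 for the large subunit and -0.096, 0.057, 0.079 and -0.065 for the small subunit, in the order unloaded 1, unloaded 2, loaded 1 and loaded 2. Both subunits thus moved the same way in each library, by an amount that exceeded the median fold change with loading. Without unloaded library 1 the median log2 fold change was -0.047 for the large and -0.064 for the small subunit, and without loaded library 1 it was -0.047 and -0.045. Without unloaded library 2 it was 0.063 and 0.099, and without loaded library 2 it was 0.056 and 0.062, so the sign of both medians depended on the library left out.

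**Figure D2:**
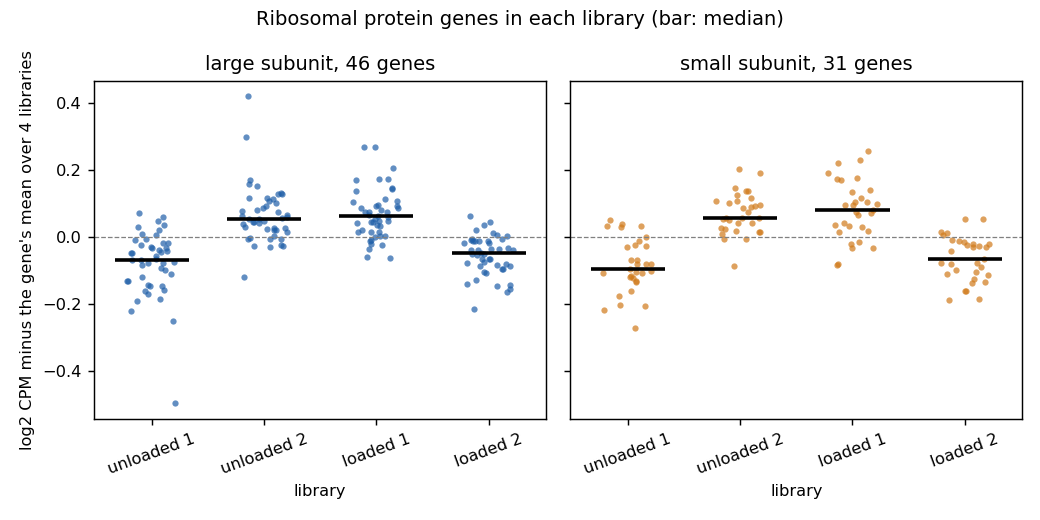
Deviation of each standard gene from its own mean over the 4 libraries (y axis, log2 CPM) in each library (x axis) for the large subunit and the small subunit. Points are genes and black bars are medians. Both medians are below 0 in unloaded 1 and loaded 2 and above 0 in unloaded 2 and loaded 1.

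The median difference between replicates was larger in the shorter genes. In the 11 standard genes with transcripts under 500 nt, the median log2 difference was 0.27 between unloaded libraries and -0.23 between loaded libraries, and all 11 had both signs. In the 17 standard genes of 1000 nt or more the medians were 0.073 and -0.059. Over the 77 standard genes, transcript length had a Spearman rho of -0.46 with the unloaded replicate difference, 0.39 with the loaded replicate difference and -0.36 with the log2 fold change. These describe genes of the same 4 libraries and are not independent replicates.

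In the median, short genes outside the ribosome showed the same signs of the replicate differences. Over the 2556 other protein-coding genes of at least 100 CPM, length had a Spearman rho of -0.34 with the unloaded replicate difference. The rho was 0.15 with the loaded replicate difference and 0.0021 with the log2 fold change. Among other protein-coding genes of at least 100 CPM, the 33 of 500 to 700 nt had median differences of 0.13 between unloaded and -0.082 between loaded libraries. The 5 under 500 nt had 0.14 and -0.079. Those of 700 to 1000 nt (98 genes) had 0.083 and -0.019, against 0.11 and -0.11 in the 28 standard genes of that length. In the 2420 of 1000 nt or more the medians were -0.026 and 0.044. Protein-coding genes under 1000 nt other than ribosomal protein genes held 4.88% and 5.22% of the counts in unloaded and 5.10% and 4.90% in loaded libraries. Unloaded library 2 was thus above unloaded library 1 and loaded library 2 below loaded library 1, as for the ribosomal protein genes. The part of transcript length in the order of the libraries was not tested.

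**Figure D3:**
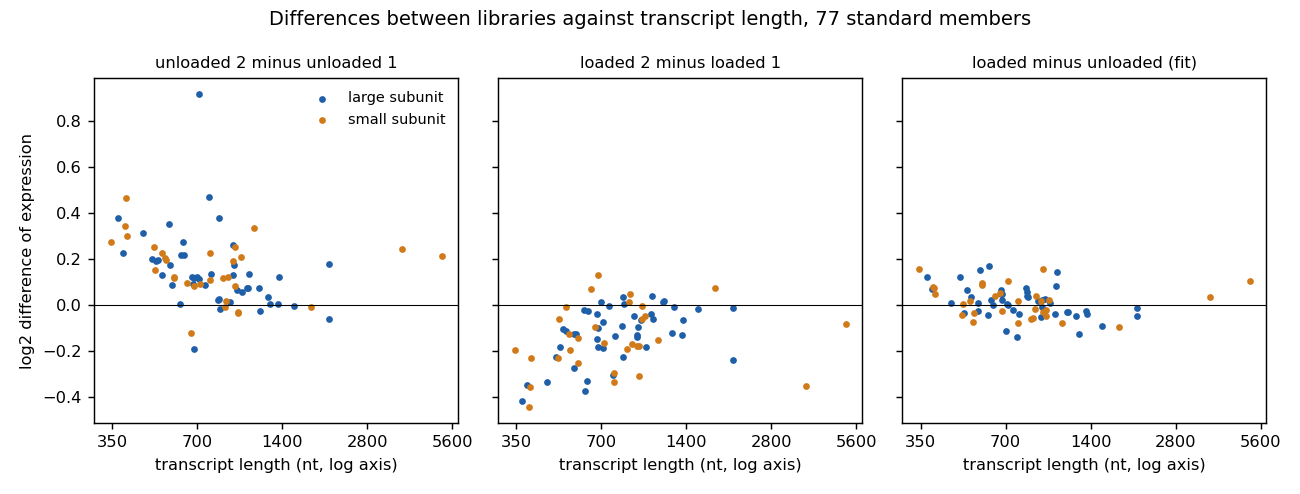
Log2 difference between replicates and log2 fold change with loading (y axes) against transcript length in nt (x axes, log scale) for the 77 standard genes, coloured by subunit. The 11 genes under 500 nt all lie above 0 between the unloaded and below 0 between the loaded libraries, and the highest single point is Rpl29, at 710 nt.

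The swing between replicates was largest in *Rpl29*, *Rps29*, *Rpl38*, *Rps28* and *Rpl13a* among the standard genes. *Rpl29* had 372 and 734 counts in unloaded and 615 and 540 counts in loaded libraries, of which unloaded library 1 stood lowest. *Rps29* had 95.3 and 131 CPM in unloaded and 134 and 105 CPM in loaded libraries. *Rps28* had 81.7 and 104 CPM against 113 and 82.9 CPM. *Rps29*, *Rpl38* and *Rps28* have transcripts of 390, 368 and 387 nt, near the short end of the set.

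The paralogs and other names had a median log2 difference of 0.079 across the 13 that were tested. In 2 of them both loaded libraries were higher (*Rpl22l1* and *Rpl7l1*), against 22.1% of all tested genes. In 2 both were lower (*Rps3a2* and *Rps3a3*, processed pseudogenes by annotation), against 24.5%, and in 9 the groups overlapped.

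*Rpl22l1*, a paralog of the RNA-binding protein *Rpl22*, had the lowest p-value of all ribosomal protein genes. It had 361 and 418 counts in unloaded and 524 and 557 counts in loaded libraries, or 12.4 and 13.8 CPM against 16.2 and 18.7 CPM. The means were 13.1 ± 0.964 and 17.5 ± 1.73 CPM (SD, n = 2), a log2 fold change of 0.41 (SE 0.145) with an unadjusted p of 0.0286 and an adjusted p of 0.284 (edgeR). *Rpl22* itself had 155 and 176 CPM against 174 and 147 CPM, with overlapping groups. Counts of *Rpl22l1* were 8.003% and 7.84% of those of *Rpl22* in unloaded and 9.36% and 12.7% in loaded libraries.

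*Rpl7l1*, a paralog of *Rpl7* whose yeast counterpart takes part in the assembly of the large subunit, had 114 and 112 CPM in unloaded and 124 and 140.3 CPM in loaded libraries. Its log2 fold change was 0.22 (SE 0.086) with an unadjusted p of 0.0412 and an adjusted p of 0.325 (edgeR). Counts of *Rpl7l1* were 18.7% and 18.8% of those of *Rpl7* in unloaded and 21.1% and 23.6% in loaded libraries. In both pairs the paralog's ratio was higher in both loaded libraries, while the parent either overlapped between groups (*Rpl22*) or was lower (*Rpl7*).

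The other paralogs gave no such separation upward. *Rps27l*, a p53 target, had 111 and 158 CPM in unloaded and 165 and 149 CPM in loaded libraries, and its counts were 33.7% to 39.5% of those of *Rps27*, with overlapping groups. *Rpl39l*, a paralog known from the testis, stood close to its parent *Rpl39*, with 118% and 116% of its counts in unloaded and 99.3% and 126% in loaded libraries. *Rpl36al*, the autosomal copy of the X-linked *Rpl36a*, had 87.4% and 87.5% of its parent's counts in unloaded and 83.1% and 86.8% in loaded libraries, lower in both. *Rps4l*, a transcribed processed pseudogene by annotation, had 14.7% to 15.8% of the counts of *Rps4x*. *Rps19bp1*, which is no ribosomal protein, had 59.9 and 70.3 CPM in unloaded and 76.1 and 69.8 CPM in loaded libraries.

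**Figure D4:**
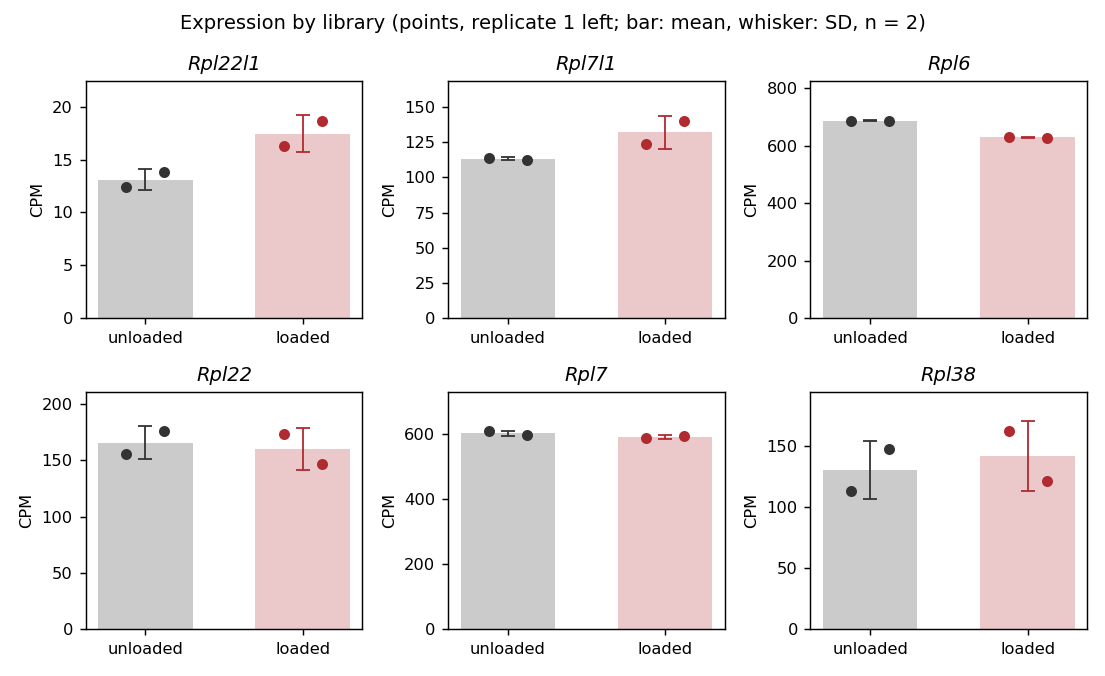
Expression in CPM (y axes, each from 0) of Rpl22l1, Rpl7l1, Rpl6, Rpl22, Rpl7 and Rpl38 in the unloaded and loaded groups (x axes), with a point per library, a bar for the group mean and a whisker for the SD (n = 2). Both loaded points lie above both unloaded points for Rpl22l1 and Rpl7l1 and below them for Rpl6 and Rpl7.

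Levels of different genes were compared per length, as CPM per kilobase (kb) of transcript, averaged over the 4 libraries with the SD over them. The highest were *Rplp1* with 1165 ± 88.7, *Rps27* with 1116 ± 125, *Rpl7a* with 1049 ± 16.5 and *Rps24* with 1006 ± 64.2 CPM per kb, which do not differ from their neighbours in the order beyond their spread. *Rps15* with 905 ± 67.7, *Rps6* with 900.1 ± 20.2 and *Rpl8* with 864 ± 49.7 CPM per kb came next and overlapped each other. The lowest standard genes were *Rpl29* with 26.1 ± 6.58, *Rps15a* with 51.7 ± 3.92, *Rps20* with 57.0 ± 6.94 and *Rpl22* with 79.6 ± 6.88 CPM per kb. The values of *Rps15a* and *Rps20* rest on annotated transcript lengths of 5130 and 3706 nt, far above the median of the set, and would be higher with a shorter length.

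Many rows of the file hold processed pseudogenes that resemble these genes, and reads from a shared stretch cannot be assigned with certainty. A median of 35.8% of the runs of 50 bases in a standard gene's annotated transcripts also occurred in transcripts of another gene, with over 50% in 21 genes and under 10% in 6. In all, 577 pseudogenes shared at least 50 such runs with 76 ribosomal protein genes, and their counts amounted to 16.8% of those of the ribosomal protein genes. The file's 300 rows with -ps names held between 0.214% and 0.234% of the counts of a library.

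In 4 genes the pseudogenes held more counts than the gene. *Rps2*, near the mRNA entry of the small subunit, had 14083 counts over the 4 libraries and its pseudogenes 195878, of which 102529 were in *Rps2-ps10*. *Rpl29* had 2261 counts and its pseudogenes 67402, *Rpl21* had 47857 and its pseudogenes 105214, and *Rplp0* had 103093 and its pseudogenes 118133, of which 94780 were in *Gm8730*. The low level of *Rpl29* and *Rps2* is therefore uncertain, since counts of the gene and of its copies cannot be told apart in the deposited table.

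With these pseudogene counts added to the gene, *Rps2* moved from place 78 to place 1 by CPM per kb among the 90 genes, while its log2 fold change was 0.05 in place of 0.02. The log2 fold change of *Rpl29* was 0.05 in place of 0.01, that of *Rpl21* 0.13 in place of 0.15 and that of *Rplp0* -0.05 in place of -0.04. The median was then 0.017 for the large and 0.024 for the small subunit, 0 genes were called by edgeR, and the share of counts was 3.73% and 4.04% in unloaded and 3.99% and 3.68% in loaded libraries. The levels of single genes thus depended on the pseudogenes, whereas the comparison of the groups gave like values with and without them.

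Other genes of the translation apparatus were read from lists of related genes. At an adjusted p under 0.01, edgeR called 0 in every list, where it called 0.0983% of all tested genes. DESeq2 called 10 over all lists, where it called 2.91% of the genes for which it gave an adjusted p. Among ribosomal proteins outside the naming rule, *Fau* and *Rack1* overlapped between the groups, with log2 fold changes of 0.0015 and -0.06. Translation factors that carry a TOP start, such as *Eef1a1* and *Eef2*, had a median of 0.02 over 15 genes. In both loaded libraries 4 were higher and 2 lower (22.1% and 24.5% of all tested genes). At an unadjusted p under 0.05 (edgeR) there were 0 of these translation factors, against 14.3% of all tested genes. These mRNAs share the TOP start with the ribosomal proteins and had a median close to theirs. Their replicates did not follow the order of the ribosomal protein genes, with medians of -0.011 between unloaded and 0.035 between loaded libraries.

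Genes for ribosome biogenesis had a median log2 difference of 0.24 across 57 genes, with 52 above 0. The groups did not overlap in 47 that were higher (22.1% of all tested genes) and in *Rrp1*, the 1 that was lower (24.5%). At an unadjusted p under 0.05 (edgeR), 29 were higher, against 6.88% of all tested genes. *Ddx21*, a nucleolar RNA helicase, had 544 and 518 CPM in unloaded and 684 CPM in each of the loaded libraries, a log2 change of 0.37 (SE 0.055, edgeR adjusted p = 0.0542). *Rrp12* had 81.4 and 71.6 CPM against 113 and 111 CPM, a log2 change of 0.55 (SE 0.092, edgeR adjusted p = 0.0717). DESeq2 called 8 genes of this list higher at an adjusted p under 0.01 (*Ddx21*, *Rrp12*, *Pno1*, *Gnl3*, *Ftsj3*, *Rrs1*, *Heatr1* and *Nop16*), where edgeR called 0. Of all genes for which DESeq2 gave an adjusted p, it called 1.36% higher. In the 57 biogenesis genes the replicates did not follow the order of the ribosomal protein genes, with medians of -0.051 between unloaded and -0.0013 between loaded libraries.

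Host genes of small nucleolar RNAs, whose introns hold the guides for ribosomal RNA modification, had a median log2 difference of 0.25 across 13 tested genes, with all 13 above 0, 8 higher in both loaded libraries (22.1% of all tested genes) and 4 higher at an unadjusted p under 0.05 (6.88% of all tested genes). Their replicates had the order of the ribosomal protein genes, with loaded library 2 below loaded library 1 in 11 of 13 (median log2 difference -0.23) and a median of 0.073 between the unloaded libraries, and the part of this order in their fold changes was not tested. Several of them, such as *Gas5*, also carry a TOP start. *Gas5* had 141 CPM in each of the unloaded and 166 and 156 CPM in loaded libraries, a log2 change of 0.19 (edgeR adjusted p = 0.291). Genes of RNA polymerase I and its factors had a median of 0.12 over 16 genes, with 4 higher (22.1% of all tested genes) and 1 lower (24.5%) in both loaded libraries, and an unadjusted p under 0.05 in 3 that were higher (6.88% of all tested genes) and 1 that was lower (7.46%). The subunit gene *Polr1b* had 26.1 and 26.5 CPM in unloaded and 37.1 and 39.1 CPM in loaded libraries (log2 fold change 0.53, edgeR adjusted p = 0.0884).

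Translation initiation factors had a median log2 difference of 0.14 across 30 genes, of which 20 were higher in both loaded libraries (22.1% of all tested genes) and 0 were lower (24.5%), and 8 were higher at an unadjusted p under 0.05 (6.88%). The cap-binding protein gene *Eif4e* had 279.9 and 272 CPM in unloaded and 330.2 and 342 CPM in loaded libraries (log2 fold change 0.29, edgeR adjusted p = 0.121). The list of mTORC1 and TOP control had a median of 0.06 over 20 genes. In both loaded libraries 8 were higher and 7 lower (22.1% and 24.5% of all tested genes). At an unadjusted p under 0.05 (edgeR), 4 were higher and 3 lower (6.88% and 7.46% of all tested genes). *Sesn3*, an inhibitor of mTORC1, had 55.1 and 49.4 CPM in unloaded and 29.5 and 31.9 CPM in loaded libraries, a log2 change of -0.77 (SE 0.107, edgeR adjusted p = 0.0429). *Larp1*, which binds the TOP start, had 289.9 and 315 CPM against 366 CPM in each of the loaded libraries, a log2 change of 0.28 (edgeR adjusted p = 0.143).

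Genes of ribosome rescue had a median log2 difference of 0.08 across 14 genes, and the 78 genes of the mitochondrial ribosome, a separate particle made of other proteins, had 0.05, with 24 higher and 8 lower in both loaded libraries (22.1% and 24.5% of all tested genes). At an unadjusted p under 0.05 there was 1 rescue gene (*Ankzf1*, lower), and there were 3 higher mitochondrial genes and 1 lower (*Mrpl4*). Of all tested genes, 6.88% were higher and 7.46% lower at that threshold. The cytosolic ribosomal protein genes stood at 0.010 over the 77 standard genes, below the medians of biogenesis, small nucleolar RNA hosts and initiation factors. The difference between the lists was not tested.

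**Figure D5:**
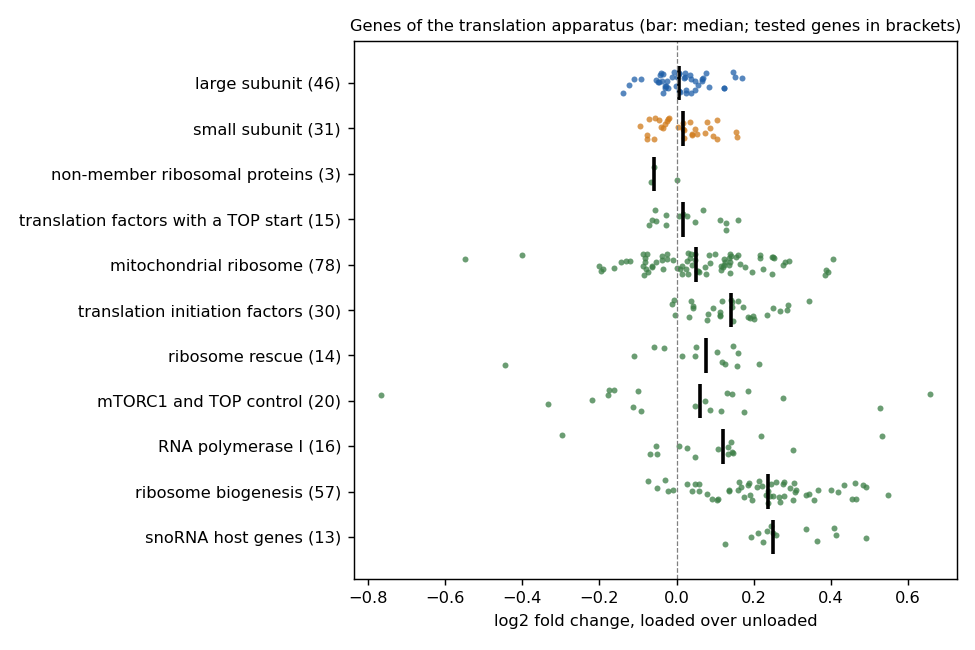
Log2 fold change of loaded over unloaded cells (x axis) for every tested gene of the large subunit, the small subunit and the related lists (y axis), with a point per gene and a black bar at the median. The subunit genes lie close to 0, whereas most points of ribosome biogenesis lie above 0.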

How the data were processed

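The 4 libraries of MLO-Y4 cells (2 unloaded, 2 loaded) were grouped by their GEO titles. The authors depleted ribosomal RNA, mapped trimmed reads to mm10 with HISAT2 2.1.0, assembled transcripts with StringTie 1.3.5 and deposited raw counts per gene, made whole with StringTie's own count script. Strandedness and annotation release are not given in the sources used here; all 55450 gene identifiers matched GENCODE M21. Because counts derive from assembled coverage, reads shared between a gene and its processed pseudogenes may be split between them.

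Genes were filtered with filterByExpr (count minimum 10), normalised by TMM and compared by the quasi-likelihood test of edgeR 4.0.16 in R 4.3.3 (limma 3.58.1 and DESeq2 1.42.0 as alternatives). Benjamini-Hochberg adjustment ran over the 16269 tested genes, with the study's threshold of 0.01. The SE is the absolute log2 fold change over the root of F. Levels in CPM are TMM-normalised over the tested genes, and shares use raw counts of all genes. Transcript length is the median length of a gene's basic protein-coding transcripts, or of its transcripts where it has none. Total counts were 28941994 to 32185693 per library, and the floor of 3 counts covers counting error only. Scripts were tested on simulated data.

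The genes and lists were chosen with earlier results of these data known. Named genes are those with an adjusted p under 0.05 (edgeR) or under 0.01 (DESeq2), the 5 largest changes per subunit of at least 1 CPM, the 3 highest and lowest levels per kb per subunit, the stalk with *Rpsa*, 9 genes known for other roles, and paralogs with their parents. A few of these are given by a range or a ratio only. Complete small sets, the largest replicate swings and examples from related lists were named after their values were seen. Alternatives were other scaling factors, other count filters, DESeq2, limma-voom, a replicate block, counts of -ps rows added to the parent, leaving out each library and a threshold of 0.05. Adding the counts of pseudogenes that share at least 50 runs of 50 bases with a gene was chosen after the data were seen. Replicate numbers were not used to pair the libraries in the main fit. Other assays of the study were not analysed here. Some single genes are not reported here.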

Additional observations from a re-analysis of the deposited data

How the results depend on the processing

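Ribosomal protein genes called higher or lower numbered 0 under all alternatives: RLE or upper-quartile factors, TMM without ribosomal protein genes, DESeq2, limma-voom, a minimum of 10 counts in each library, no filter, the replicate block, -ps or pseudogene counts added, an adjusted p under 0.05, and each library left out, where the lone library was assumed to vary like the other group. Beside them the calls over all genes were 2 higher and 14 lower, but 170 and 193 with DESeq2, 4 and 25 with that minimum, 19 and 31 without unloaded replicate 1, 18 and 40 without unloaded replicate 2, and 0 with no filter, with the block and without either loaded replicate. The related lists held 0 called genes, but 10 with DESeq2 and 1 at an adjusted p under 0.05 (edgeR). The same-number correlation of deviations was -0.057 over all tested genes and -0.573 over ribosomal protein genes. With 2 libraries per group, it cannot show whether libraries of the same number shared a culture or a batch. With the replicate block the median log2 fold change was 0.010 for the large and 0.020 for the small subunit, and 0 genes were called. With libraries left out in turn it ran from -0.047 to 0.063 and from -0.064 to 0.099, and the difference in the share of counts from -0.190 to 0.0856 percentage points. In the same fits the log2 fold change changed sign in 24 named genes, none of which was called. The ranges were -0.044 to 0.15 (*Rpl10a*), -0.35 to 0.11 (*Rpl13a*), -0.17 to 0.067 (*Rpl22*), -0.37 to 0.54 (*Rpl29*), -0.087 to 0.039 (*Rpl3*), -0.013 to 0.18 (*Rpl36al*), -0.095 to 0.32 (*Rpl38*), -0.026 to 0.34 (*Rpl39*), -0.043 to 0.026 (*Rpl5*), -0.00023 to 0.042 (*Rpl7a*), -0.12 to 0.014 (*Rpl8*) and -0.088 to 0.025 (*Rplp0*). They were -0.13 to 0.064 (*Rplp1*), -0.17 to 0.17 (*Rplp2*), -0.0034 to 0.30 (*Rps13*), -0.16 to 0.035 (*Rps15*), -0.16 to 0.17 (*Rps19*), -0.074 to 0.13 (*Rps2*), -0.15 to 0.20 (*Rps20*), -0.084 to 0.13 (*Rps24*), -0.032 to 0.21 (*Rps25*), -0.12 to 0.055 (*Rps3*), -0.011 to 0.045 (*Rps4l*) and -0.050 to 0.0064 (*Rps4x*). *Rpl22l1* ran from 0.31 to 0.51 and *Rpl7l1* from 0.13 to 0.31, without a change of sign, and *Rpl6* stood at -0.12 in each. The causes were not tested.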
